A study of Homo sapiens and Mus musculus with 27 samples.

Results

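The CDK inhibitor genes of the CIP/KIP and INK4 families were followed through 27 RNA-seq libraries, with CDKN1A set against its relatives. The members were chosen by name: 3 CIP/KIP genes (CDKN1A, CDKN1B and CDKN1C) and 4 INK4 genes (CDKN2A, CDKN2B, CDKN2C and CDKN2D). All 7 were found among the 78932 features of each human table, and their orthologs were found among the 25239 genes of the mouse table. Cyclin-dependent kinases drive cells through the division cycle, and these genes encode the proteins that restrain them. CIP/KIP proteins bind complexes of cyclins with CDK2 and, in some settings, help cyclin D to assemble with CDK4. INK4 proteins bind CDK4 and CDK6 and keep cyclin D off. Both arms keep the pocket proteins of the RB family free of phosphate, so that E2F target genes stay silent. CDKN1A encodes p21, which halts the cycle after DNA damage and is also induced by other stress pathways.

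The libraries form 9 groups of 3 biological replicates. HCC1937 cells, labelled as a human breast cancer line, received 10 µM TM, 10 µM AMD3100 or vehicle. MDA-MB-231 cells, a human breast cancer line of mesenchymal type, received 10 nM bortezomib with 10 µM TM, 10 nM bortezomib with 10 µM AMD3100, or vehicle. Balb/c mice with tumours of the 4T1 mammary carcinoma line received bortezomib at 1 mg/kg every 4 days together with TM at 0.05 mg/ml in the drinking water, the same bortezomib schedule together with AMD3100 at 5 mg/kg every 2 days, or vehicle. Bortezomib is a proteasome inhibitor and AMD3100 blocks the chemokine receptor CXCR4, while TM is a name that the labels do not expand. No group received bortezomib without a partner, and HCC1937 received no bortezomib. The part of each agent in the combined arms, and the line against the presence of bortezomib, cannot be told apart. The sources used here give no treatment times and no age for the mice. The labels do not say whether replicates came from separate cultures, so the p-values measure the spread between these libraries.

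Libraries held 35981504 to 43973262 counts for HCC1937. MDA-MB-231 libraries held 40389469 to 50283398, and those of 4T1 tumours 38407536 to 50735374. HCC1937 AMD3100 replicate 1 stood apart, with 19.9% of its counts on mitochondrial genes against 10.5% to 11.6% in the other 8 HCC1937 libraries and with 20639 features detected against 29335 or more. Calls of the members in HCC1937, and counts of called genes on the lists of related genes, are given with and without it where they differ. The label HCC1937 was checked against epithelial markers, and the data went partly against it. HCC1937 is known as an epithelial, basal-like carcinoma line, yet EPCAM reached at most 0.558 CPM (counts per 1000000, scaled between libraries), CDH1 at most 1.92 CPM, KRT19 at most 0.667 CPM and KRT5 at most 0.103 CPM in any HCC1937 library, while KRT8 ran from 1087 to 1885 CPM. In the same libraries KRT18 ran from 429.7 to 833.5 CPM and VIM from 282.2 to 813.7 CPM, while FN1 reached at most 1.08 CPM. Of the other basal markers KRT17 ran from 4.39 to 11.4 CPM and KRT14 reached at most 0.415 CPM. Of the other mesenchymal markers ZEB1 ran from 8.9 to 31.7 CPM and CDH2 reached at most 0.0479 CPM. The name HCC1937 is used below as the label gives it. In MDA-MB-231, VIM ran from 881.3 to 982.5 CPM, FN1 from 32.4 to 64.9 CPM, and CDH1 reached at most 0.159 CPM. Other markers there were mixed for a mesenchymal type. KRT8 ran from 293.0 to 413.4 CPM, KRT18 from 116.4 to 274.8 CPM and KRT19 from 79.7 to 142.6 CPM. ZEB1 ran from 3.3 to 9.7 CPM and CDH2 reached at most 0.107 CPM. In the 4T1 tumours Krt8 ran from 557.1 to 1345 CPM and Epcam from 11.4 to 54.4 CPM. 1 vehicle tumour of 4T1 carries human cell line labels in some fields and was kept by its title.

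CDKN1A lies on chromosome 6 (chr6:36676460-36687339, forward strand, GRCh38, GENCODE release 29). Its sequence upstream of the RefSeq transcription start is shown because CDKN1A carries the main result, beside that of CDKN2D (chr19:10566462-10569059, reverse strand), the INK4 member that rose with it in both MDA-MB-231 arms. Both stretches begin 250 bases before the start given in RefSeq (GRCh38.p14), run 5′ to 3′ on the strand of the gene, and stop before the next exon of the gene in GENCODE. The CDKN1A stretch lies inside the GENCODE gene, which starts farther upstream, and the CDKN2D stretch ends at the first exon. Capitals mark the GC box GGGCGG, searched on both strands.
CDKN1A, chr6:36678464-36678657, forward strand: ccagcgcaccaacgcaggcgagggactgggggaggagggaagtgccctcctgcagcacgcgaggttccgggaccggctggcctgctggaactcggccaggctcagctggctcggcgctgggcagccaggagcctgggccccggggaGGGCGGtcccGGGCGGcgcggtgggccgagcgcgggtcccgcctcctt
CDKN2D, chr19:10569060-10569229, reverse strand: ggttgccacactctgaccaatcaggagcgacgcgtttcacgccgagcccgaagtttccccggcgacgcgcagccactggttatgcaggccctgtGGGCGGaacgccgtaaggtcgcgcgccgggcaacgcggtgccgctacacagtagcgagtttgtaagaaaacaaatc
The CDKN1A stretch of 194 bases held 2 GC boxes that do not overlap, and 33.8% of all 35116 promoters in the RefSeq table held at least 1 in the same window. The CDKN2D stretch of 170 bases held 1, against 29.5% of promoters in its window. The CCAAT box CCAAT occurred 1 time in the CDKN2D stretch, against 22% of promoters. It was absent from the CDKN1A stretch, where 26.5% of promoters held it. Neither stretch held the TATA box TATAAA, the AP-1 site TGANTCA or the C/EBP-ATF response element TGATGNAAT on either strand, which 7.48%, 5.11% and 0.621% of promoters held in the CDKN1A window. The stretches end at positions -57 (CDKN1A) and -81 (CDKN2D) from the start. Bases closer to the start were not searched, so a motif there, such as a TATA box, would have been missed. The table held 9 promoters for 6 of the 7 members.

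CDKN1A was the member that TM raised in HCC1937 cells. It stood at 440.4, 480.3 and 450.4 CPM in the 3 TM libraries, against 45.6, 48.4 and 49.3 CPM in the 3 vehicle libraries. Every TM library lay far above every vehicle library, in a comparison where 51.6% of tested genes did not overlap. The fold change was 9.57 (log2 change 3.26, SE 0.18, adjusted p = 8.97e-05 by edgeR's quasi-likelihood test), and CDKN1A ranked number 6 by p-value among 19461 tested genes. In this comparison 7.07% of tested genes were called at an adjusted p under 0.05, with 2.96% higher and 4.11% lower. CDKN1A overlaps the long noncoding gene DINOL on the opposite strand over 146 exon bases, and whether the counting used strand was not given in the sources used here.

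**Figure D1:**
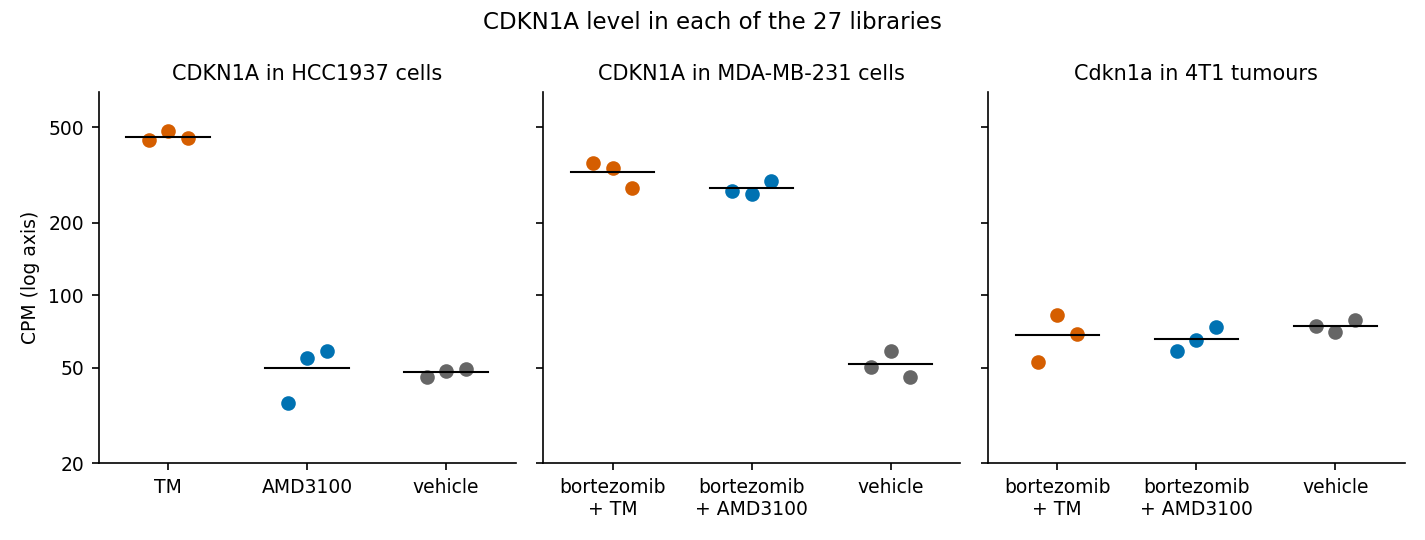
CDKN1A (Cdkn1a in mouse) in each of the 27 libraries, in CPM on a log axis, with 1 point per library and a line at the group mean of 3 libraries. TM in HCC1937 (440.4 to 480.3 CPM) and both bortezomib arms in MDA-MB-231 (263.9 to 353.6 CPM) stand above their vehicle groups (45.6 to 58.5 CPM), while HCC1937 AMD3100 and the 4T1 arms lie near theirs.

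AMD3100 at the same concentration left CDKN1A near its vehicle level in HCC1937. The 3 AMD3100 libraries held 35.7, 54.9 and 58.7 CPM, against 45.6, 48.4 and 49.3 CPM in vehicle. The lowest AMD3100 library is replicate 1, the one with the high mitochondrial share, and the other 2 lay above all vehicle libraries. The log2 change was 0.06 (SE 0.17, edgeR adjusted p = 0.937), in a comparison with 0 called genes (0%), 951 genes at an unadjusted p under 0.05 and 39 called by DESeq2. Without AMD3100 replicate 1 the log2 change was 0.27 (edgeR adjusted p = 0.00239) and 8.14% of tested genes were called. Set directly against TM, CDKN1A was lower in AMD3100 cells by a fold of 9.18 (log2 change -3.20, SE 0.18, edgeR adjusted p = 0.000154), and it was the only member called, in a comparison where 8.22% of tested genes were called, 4.61% higher and 3.6% lower. Without AMD3100 replicate 1, CDKN1A (-2.99), CDKN1B (-0.22, edgeR adjusted p = 0.0217), CDKN2A (0.33, edgeR adjusted p = 8.13e-06) and CDKN2B were called, 4 of 7 members where 36.5% of tested genes were called. The comparisons against vehicle share the vehicle libraries, as do all such pairs below.

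Both bortezomib combinations raised CDKN1A in MDA-MB-231 cells. With bortezomib and TM the level was 353.6, 337.8 and 280.0 CPM, with bortezomib and AMD3100 it was 270.3, 263.9 and 299.6 CPM, and in vehicle cells it was 50.2, 58.5 and 45.8 CPM. No treated library came near a vehicle library, and the 2 treated arms overlapped each other. Of all tested genes 58.4% did not overlap vehicle in the TM arm and 57.9% in the AMD3100 arm. The fold change was 6.28 for the TM arm (log2 change 2.65, SE 0.13, edgeR adjusted p = 3.24e-08) and 5.39 for the AMD3100 arm (log2 change 2.43, SE 0.13, edgeR adjusted p = 7.71e-08). The background of calls was high, at 51.7% of 16498 tested genes in the TM arm and 46.5% in the AMD3100 arm. CDKN1A ranked number 59 by p-value in the TM arm and number 61 in the AMD3100 arm. Between the AMD3100 and TM arms the log2 difference was -0.22 (SE 0.12, edgeR adjusted p = 0.612).

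Scaling mattered in MDA-MB-231. When libraries were scaled by their totals in place of the trimmed mean of M-values (TMM), the median log2 change over all tested genes moved by -0.42 in the TM arm and by -0.36 in the AMD3100 arm. CDKN1A then rose by 2.23 on the log2 scale in the TM arm (edgeR adjusted p = 5.41e-08) and by 2.07 in the AMD3100 arm (edgeR adjusted p = 9.96e-08). The direction and the calls of CDKN1A did not depend on the scaling, unlike those of CDKN1B, CDKN2C and CDKN2D described below.

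In 4T1 tumours Cdkn1a did not pass the test in any comparison. It held 52.7, 82.9 and 68.8 CPM with bortezomib and TM, 58.4, 64.8 and 73.8 CPM with bortezomib and AMD3100, and 74.6, 70.4 and 79.0 CPM in vehicle tumours. All 3 groups overlapped. The log2 change was -0.13 (SE 0.16, edgeR adjusted p = 0.921) for the TM arm and -0.19 (SE 0.16, edgeR adjusted p = 0.747) for the AMD3100 arm. In both comparisons edgeR called 0 of 15846 tested genes (0%), with 688 genes in the TM arm and 1144 in the AMD3100 arm at an unadjusted p under 0.05, and DESeq2 called 3 and 17. A tumour library mixes cancer cells with host cells, and fewer cells of a type cannot be told apart from less RNA per cell. Summed CPM of 4 B cell markers ran from 1.32 to 318.7 in the TM arm, from 3.04 to 465.9 in the AMD3100 arm and from 1.39 to 81.1 in vehicle tumours. Summed CPM of 4 tumour epithelial markers ran from 985.1 to 1743 in the TM arm, from 913.2 to 1177 in the AMD3100 arm and from 1368 to 2242 in vehicle tumours. The part of this cell mixture in the Cdkn1a values was not tested.

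CDKN1B, which encodes p27, the inhibitor that holds cells in quiescence, had smaller changes than CDKN1A. In HCC1937 it held 46.2, 41.7 and 46.4 CPM with TM, 46.7, 40.6 and 35.4 CPM with AMD3100, and 42.4, 42.9 and 41.7 CPM in vehicle. These groups overlapped, with log2 changes of 0.08 (SE 0.12, edgeR adjusted p = 0.796) for TM and -0.05 (SE 0.12, edgeR adjusted p = 0.929) for AMD3100. In MDA-MB-231 it held 44.0, 52.5 and 48.1 CPM with bortezomib and TM, 42.7, 38.9 and 38.6 CPM with bortezomib and AMD3100, and 35.8, 28.7 and 34.6 CPM in vehicle. Both treated arms lay above vehicle with no overlap, as 58.4% of tested genes did not overlap in the TM arm and 57.9% in the AMD3100 arm, and the TM arm passed the test (log2 change 0.55, SE 0.13, edgeR adjusted p = 0.00322) where the AMD3100 arm did not (0.28, SE 0.12, edgeR adjusted p = 0.0871). Scaled by library totals the CDKN1B log2 change was 0.12 (edgeR adjusted p = 0.465) in the TM arm and -0.09 (edgeR adjusted p = 0.607) in the AMD3100 arm, so the call in the TM arm was lost.

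The ratio of CDKN1A to CDKN1B within a library does not depend on the scaling between libraries. On the log2 scale it was 3.25, 3.53 and 3.28 with TM in HCC1937, -0.39, 0.43 and 0.73 with AMD3100, and 0.11, 0.17 and 0.24 in vehicle. In MDA-MB-231 it averaged 2.74 ± 0.24 with bortezomib and TM, 2.79 ± 0.15 with bortezomib and AMD3100, and 0.64 ± 0.34 in vehicle (SD, n = 3 each). Every library of these 3 raised arms lay above every vehicle library of its line. The differences were 3.18 for TM in HCC1937, 2.10 for the TM arm and 2.15 for the AMD3100 arm in MDA-MB-231, each with p = 0.1 in a two-sided exact permutation test, the smallest value that 3 libraries against 3 allow, and 0.18 after adjustment over 9 comparisons. For AMD3100 against vehicle in HCC1937 the difference was 0.08 (exact permutation p = 0.9), and without AMD3100 replicate 1 it was 0.41. In 4T1 the ratio averaged -0.25 ± 0.30 with bortezomib and TM, -0.25 ± 0.17 with bortezomib and AMD3100, and 0.08 ± 0.17 in vehicle tumours. The difference from vehicle was -0.33 in both arms, with exact permutation p = 0.2 for the TM arm and p = 0.1 for the AMD3100 arm (0.3 and 0.18 after adjustment). Every AMD3100 arm tumour lay below every vehicle tumour, the opposite direction to the raised human arms, and its p is again the smallest possible.

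**Figure D2:**
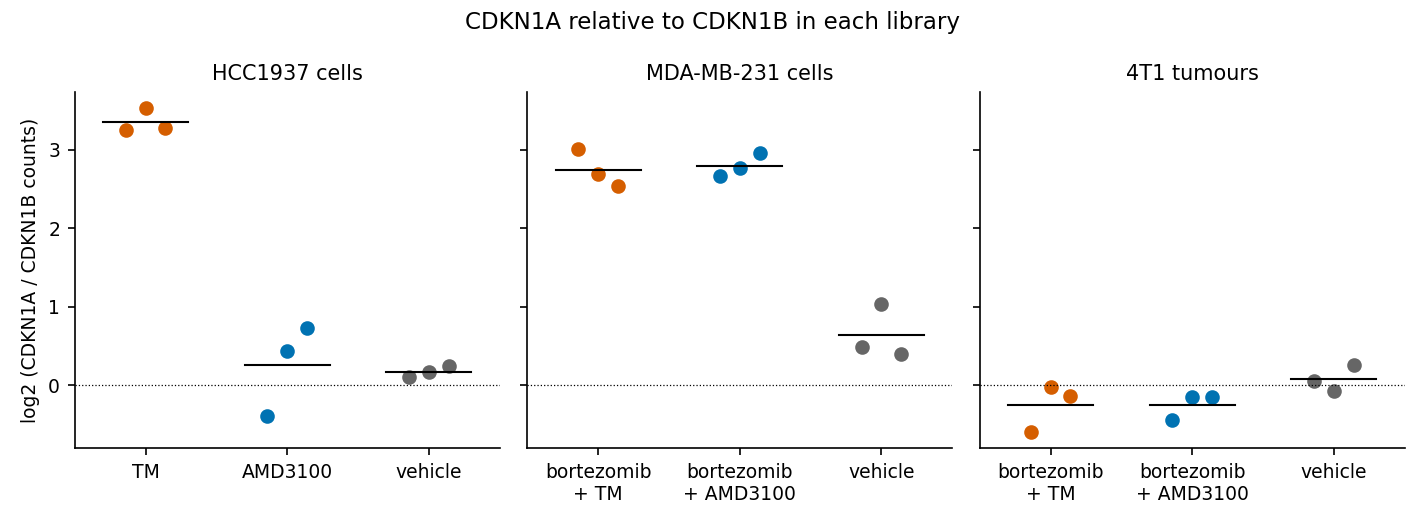
Log2 ratio of CDKN1A to CDKN1B counts in each library, 1 point per library with a line at the group mean and a dotted line at equal counts. The ratio is 3.25 or higher in all TM libraries of HCC1937 and 2.54 or higher in all bortezomib libraries of MDA-MB-231, against 0.11 to 1.03 in the vehicle libraries of both lines, and all but 2 of the 4T1 tumours lie below 0.

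CDKN1C encodes p57, an imprinted CIP/KIP gene that acts mainly in development, and it rose in both MDA-MB-231 arms and did not pass the test in HCC1937. In MDA-MB-231 it held 17.3, 18.9 and 13.9 CPM with bortezomib and TM, 14.97, 14.27 and 15.9 CPM with bortezomib and AMD3100, and 5.58, 6.77 and 4.83 CPM in vehicle. Treated and vehicle libraries did not overlap, as for 58.4% of tested genes in the TM arm and 57.9% in the AMD3100 arm. The fold change was 2.92 in the TM arm (log2 change 1.54, SE 0.18, edgeR adjusted p = 2.38e-05) and 2.63 in the AMD3100 arm (log2 change 1.39, SE 0.18, edgeR adjusted p = 6.56e-05), and both calls held with library totals (1.12 and 1.04). In HCC1937 the level was 40.3, 39.0 and 38.2 CPM with TM, 80.8, 43.8 and 40.9 CPM with AMD3100, and 38.9, 39.5 and 36.8 CPM in vehicle. The high AMD3100 value is again replicate 1. The log2 change was 0.03 for TM (edgeR adjusted p = 0.973) and 0.52 for AMD3100 (edgeR adjusted p = 0.882, and 0.16 without replicate 1).

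In 4T1 tumours Cdkn1c was scarce. It held 2.15, 0.767 and 0.701 CPM with bortezomib and TM, 2.07, 0.670 and 1.87 CPM with bortezomib and AMD3100, and 0.472, 0.253 and 0.641 CPM in vehicle tumours. Every treated tumour lay above every vehicle tumour, which 9.97% of tested genes in the TM arm and 13.4% in the AMD3100 arm did in 1 direction or the other. The log2 change was 1.39 (SE 0.63, edgeR adjusted p = 0.887) in the TM arm and 1.74 (SE 0.63, edgeR adjusted p = 0.634) in the AMD3100 arm, so neither passed.

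CDKN2A and CDKN2B neighbour each other on chromosome 9 (chr9:21967753-21995301 and chr9:22002903-22009363, both reverse strand) and encode p16 and p15, the INK4 proteins that rise in senescent cells. CDKN2A also encodes ARF in another reading frame, and gene counts do not separate the products. In MDA-MB-231 both genes had 0 counts in all 9 libraries, and 3 counts, the limit that a count of 0 allows, come to 0.0597 to 0.0743 CPM per library and to 0.00749 CPM over the 400415770 counts of all 9. Counting error alone is covered by that limit. Neither gene could be tested there, so 5 of the 7 members entered the MDA-MB-231 comparisons.

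The genes on either side were as empty in MDA-MB-231. In order along chromosome 9, HACD4, KLHL9, DMRTA1 and ELAVL2 had 0 counts in all 9 libraries. MTAP, the enzyme that salvages methionine, had 4 counts in 1 library and 0 in 8, and the antisense gene CDKN2B-AS1 had 1 count in each of 2 libraries. FOCAD on the outer side of HACD4 held 1.65 ± 0.19 CPM with bortezomib and TM, 2.20 ± 0.25 CPM with bortezomib and AMD3100, and 1.07 ± 0.20 CPM in vehicle (SD, n = 3 each). TUSC1 on the outer side of ELAVL2 held 10.9 ± 1.64 CPM, 10.9 ± 0.47 CPM and 29.4 ± 2.62 CPM in the same order (SD, n = 3 each). HACD4 was scarce in HCC1937 too, at 0.316 ± 0.109 CPM in vehicle libraries and 0 counts in AMD3100 replicate 3. DMRTA1 held 4.59 ± 0.91 CPM and ELAVL2 4.56 ± 0.91 CPM in HCC1937 vehicle libraries (SD, n = 3 each). In the same libraries MTAP held 76.9 ± 6.91 CPM, KLHL9 21.4 ± 0.37 CPM and CDKN2B-AS1 7.59 ± 1.07 CPM (SD, n = 3 each). Of the 12 genes on a list of these neighbours and of the Polycomb genes that silence the locus, 6 were tested in MDA-MB-231, where 1 rose and 4 fell in the TM arm (24.1% and 27.6% of tested genes) and 1 rose and 3 fell in the AMD3100 arm (22.3% and 24.2%). In HCC1937 with TM 1 of 12 was called, FOCAD, at 24.6 CPM against 38.5 CPM in vehicle (log2 change -0.65, SE 0.16, edgeR adjusted p = 0.0409). Of all tested genes 2.96% were called higher and 4.11% lower there. Without AMD3100 replicate 1, 2 of the 12 rose and 5 fell, where 19.4% of tested genes were called higher and 21.4% lower. MDA-MB-231 is known to lack the CDKN2A locus, and DNA was not measured here.

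**Figure D3:**
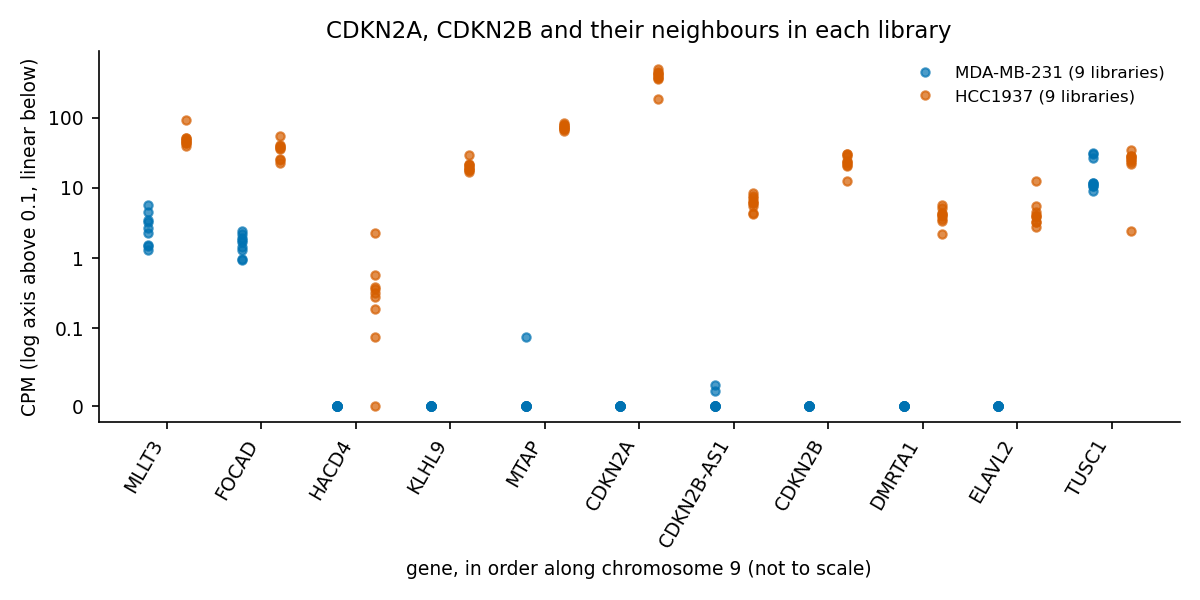
CPM of CDKN2A, CDKN2B and 9 neighbours in each of the 18 human libraries, with genes in order along chromosome 9, an axis that is logarithmic above 0.1 CPM and linear below it, and 1 point per library. In MDA-MB-231 the genes from HACD4 to ELAVL2 sit at or near 0 in all 9 libraries, while FOCAD, MLLT3 and TUSC1 outside them carry counts, and in HCC1937 CDKN2A runs from 184.7 to 492.6 CPM.

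In HCC1937, CDKN2A was abundant and did not pass the test. It held 373.3, 406.0 and 361.3 CPM with TM, 184.7, 452.0 and 492.6 CPM with AMD3100, and 415.8, 383.6 and 432.0 CPM in vehicle. The low AMD3100 value is replicate 1, and the other 2 AMD3100 libraries lay above every TM and vehicle library. The log2 change was -0.11 for TM (SE 0.30, edgeR adjusted p = 0.907) and -0.12 for AMD3100 (SE 0.30, edgeR adjusted p = 0.928). Without AMD3100 replicate 1 the AMD3100 change turned to 0.22 against vehicle (edgeR adjusted p = 0.00819) and, against TM, to 0.33 (edgeR adjusted p = 8.13e-06) where all libraries gave -0.01. Both turned values passed the test. CDKN2A shares 341 exon bases with CDKN2B-AS1 on the opposite strand.

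CDKN2B in HCC1937 held 30.3, 28.7 and 30.8 CPM with TM, 12.6, 21.3 and 22.5 CPM with AMD3100, and 23.52, 23.96 and 20.77 CPM in vehicle. All TM libraries lay above all vehicle libraries, and for 51.6% of tested genes these groups did not overlap in 1 direction or the other. The log2 change for TM was 0.40 (SE 0.20, edgeR adjusted p = 0.314), and it was called at the same size, 0.40, without AMD3100 replicate 1 (edgeR adjusted p = 0.000107, with 40.8% of tested genes called). Set against TM, AMD3100 gave a log2 difference of -0.67 (SE 0.20, edgeR adjusted p = 0.0748), and without AMD3100 replicate 1 it was -0.43 (edgeR adjusted p = 0.000202). It was also called by DESeq2 (-0.68, adjusted p = 0.0178) and by edgeR without the low-count filter (-0.72, adjusted p = 0.0132). The AMD3100 and TM libraries did not overlap for CDKN1A, CDKN1C and CDKN2B, 3 of 7 members, as for 33.6% of tested genes. In 4T1 tumours Cdkn2a and Cdkn2b were scarce but had counts in every tumour. Cdkn2a ran from 0.341 to 1.19 CPM and Cdkn2b from 0.645 to 2.40 CPM over all 9 tumours. Their log2 changes lay between 0.29 and 0.78 with SEs of 0.51 to 0.59 in both arms against vehicle, none called.

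CDKN2C encodes p18, an INK4 protein of dividing and differentiating cells, and in MDA-MB-231 it was the member that fell. It held 92.1, 99.3 and 88.6 CPM with bortezomib and TM, 71.4, 72.9 and 73.3 CPM with bortezomib and AMD3100, and 96.2, 106.0 and 92.5 CPM in vehicle. All AMD3100 arm libraries lay below all TM arm and vehicle libraries, and 57.9% of tested genes did not overlap between that arm and vehicle. The treated arms did not overlap for 3 of 5 tested members (CDKN1B, CDKN2C and CDKN2D), as for 13.4% of tested genes. The fall passed the test in the AMD3100 arm (log2 change -0.44, SE 0.10, edgeR adjusted p = 0.00268) and the TM arm gave -0.07 (SE 0.10, edgeR adjusted p = 0.545). By library totals the values were -0.80 in the AMD3100 arm and -0.49 in the TM arm (edgeR adjusted p = 0.000211), and by median-of-ratios scaling the TM arm stood at 0.0025. Between the AMD3100 and TM arms the log2 difference of -0.36 (SE 0.10) had an unadjusted p of 0.00253 and an edgeR adjusted p of 0.357, in a comparison with 0 called genes (0%), 1464 at an unadjusted p under 0.05 and 70 called by DESeq2. In HCC1937 CDKN2C ran from 41.9 to 50.5 CPM over all 9 libraries, with log2 changes of 0.14 for TM and 0.02 for AMD3100, neither called.

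CDKN2D encodes p19, the INK4 protein whose level follows the cell cycle. In MDA-MB-231 it held 54.1, 48.0 and 43.7 CPM with bortezomib and TM, 39.5, 41.2 and 38.5 CPM with bortezomib and AMD3100, and 27.3, 30.8 and 29.5 CPM in vehicle. The 3 groups were ordered without overlap, TM arm above AMD3100 arm above vehicle. Of all tested genes 58.4% did not overlap between the TM arm and vehicle. The share was 57.9% between the AMD3100 arm and vehicle, and 13.4% between the arms. The log2 change was 0.73 in the TM arm (SE 0.12, edgeR adjusted p = 0.000276) and 0.44 in the AMD3100 arm (SE 0.12, edgeR adjusted p = 0.00868). By library totals they were 0.31 (edgeR adjusted p = 0.0263) and 0.08 (edgeR adjusted p = 0.541), so the call in the AMD3100 arm was lost. In HCC1937 it held 11.5, 13.7 and 10.8 CPM with TM, 3.99, 11.5 and 13.5 CPM with AMD3100, and 13.4, 9.55 and 10.4 CPM in vehicle, with overlap throughout and no call.

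In 4T1 tumours the other abundant members did not pass the test against vehicle in either arm. Cdkn1b ran from 66.2 to 84.3 CPM, Cdkn2c from 74.2 to 132.4 CPM and Cdkn2d from 49.7 to 69.6 CPM over the 9 tumours. Their log2 changes against vehicle lay between -0.22 (Cdkn2c in the AMD3100 arm) and 0.18 (Cdkn1b in the TM arm). The 3 Cdkn1b libraries of the TM arm lay above the 3 of vehicle, and 9.97% of tested genes did not overlap in that comparison. None of the 7 members was called in any 4T1 comparison, and in the AMD3100 arm against the TM arm 454 genes had an unadjusted p under 0.05 with 0 called by edgeR (0%) and 6 by DESeq2. No member separated those arms without overlap, against 7.37% of tested genes.

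Counted as a family, 1 of 7 members was called for TM in HCC1937, where 7.07% of tested genes were called, and 0 of 7 for AMD3100, where 0% were. Without AMD3100 replicate 1 they were 2 of 7 for TM (CDKN1A and CDKN2B), where 19.4% of tested genes were called higher and 21.4% lower, and 2 of 7 for AMD3100 (CDKN1A and CDKN2A), where 5.39% were called higher and 2.76% lower. In MDA-MB-231, 4 of 5 tested members rose in the TM arm, where 24.1% of tested genes were called higher and 27.6% lower, and 3 of 5 rose and 1 fell in the AMD3100 arm, where 22.3% were called higher and 24.2% lower. By library totals 3 of 5 rose and CDKN2C fell in the TM arm, where 13.3% of tested genes were called higher and 43.3% lower, and 2 of 5 rose and CDKN2C fell in the AMD3100 arm, where 12.8% were called higher and 38.2% lower. The members other than CDKN1A changed by -0.11 to 0.40 with TM in HCC1937 (median 0.10 on the log2 scale, 6 genes), against a median of 0.00 over all tested genes. In MDA-MB-231 they changed by -0.07 to 1.54 in the TM arm (median 0.64, 4 genes) and by -0.44 to 1.39 in the AMD3100 arm (median 0.36, 4 genes), against medians of -0.09 and -0.05 over all tested genes. CDKN1A exceeded the largest of these in each of the 3 comparisons, and only its difference from CDKN1B was tested, as the ratio given above. In the AMD3100 arm against the TM arm of MDA-MB-231 all 5 tested members had lower values, by -0.15 to -0.36, and none was called.

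**Figure D4:**
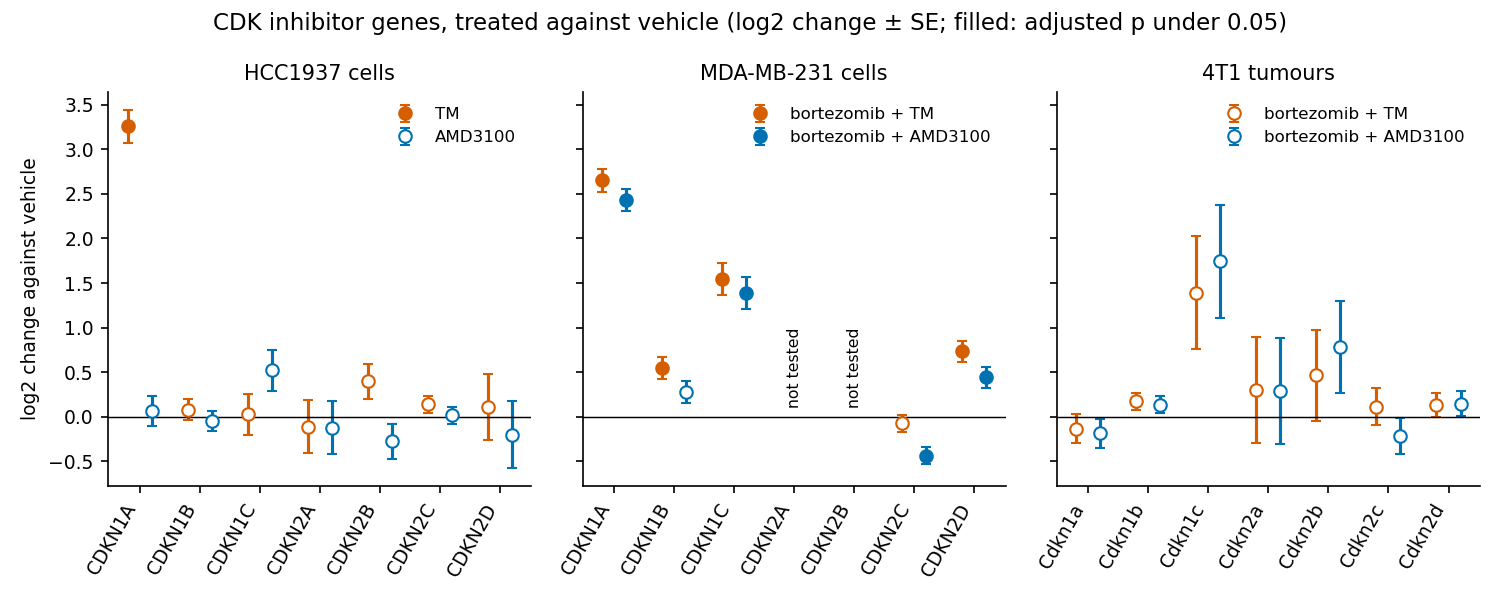
Log2 change against vehicle of the 7 CDK inhibitor genes in each dataset, with the treated arms side by side, bars of 1 SE, and filled points where the edgeR adjusted p was under 0.05. CDKN1A is the only filled point in HCC1937 (3.26 with TM), MDA-MB-231 has filled points for CDKN1A, CDKN1C and CDKN2D in both arms, and 4T1 has none.

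Levels of different members can be set side by side only per length. Dividing CPM by the gene lengths in the authors' table (3056 bases for CDKN1A, 9255 for CDKN1B, 3885 for CDKN2A, 3018 for CDKN2C and 1505 for CDKN2D) gave CPM per kb. The lengths of the transcripts expressed here were not tested. For CDKN1B the length used exceeds the whole span of its GENCODE gene. In HCC1937 vehicle cells CDKN1B held 42.3 CPM against 47.75 CPM for CDKN1A, but 4.57 against 15.63 CPM per kb. The order of the members and the CDKN1A shares below therefore hold only for these lengths. In HCC1937 vehicle cells CDKN2A led at 105.7 ± 6.34 CPM per kb, followed by CDKN1A, CDKN1C and CDKN2C at 14.8 to 15.6 CPM per kb. CDKN1A rose past CDKN2A with TM, at 149.6 ± 6.80 CPM per kb against 97.9 ± 5.96 CPM per kb for CDKN2A in the same libraries (SD, n = 3 each). In MDA-MB-231 vehicle cells CDKN2C stood highest at 32.5 ± 2.31 CPM per kb, above CDKN2D at 19.4 ± 1.20 CPM per kb. CDKN1A made up 49.9% ± 0.55 of the summed family level with TM in HCC1937, 9.84% ± 0.16 with AMD3100 and 9.25% ± 0.57 in vehicle (SD, n = 3 each). In MDA-MB-231 its share was 58.4% ± 1.37 with bortezomib and TM, 59.9% ± 1.77 with bortezomib and AMD3100, and 22.5% ± 1.33 in vehicle (SD, n = 3 each).

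**Figure D5:**
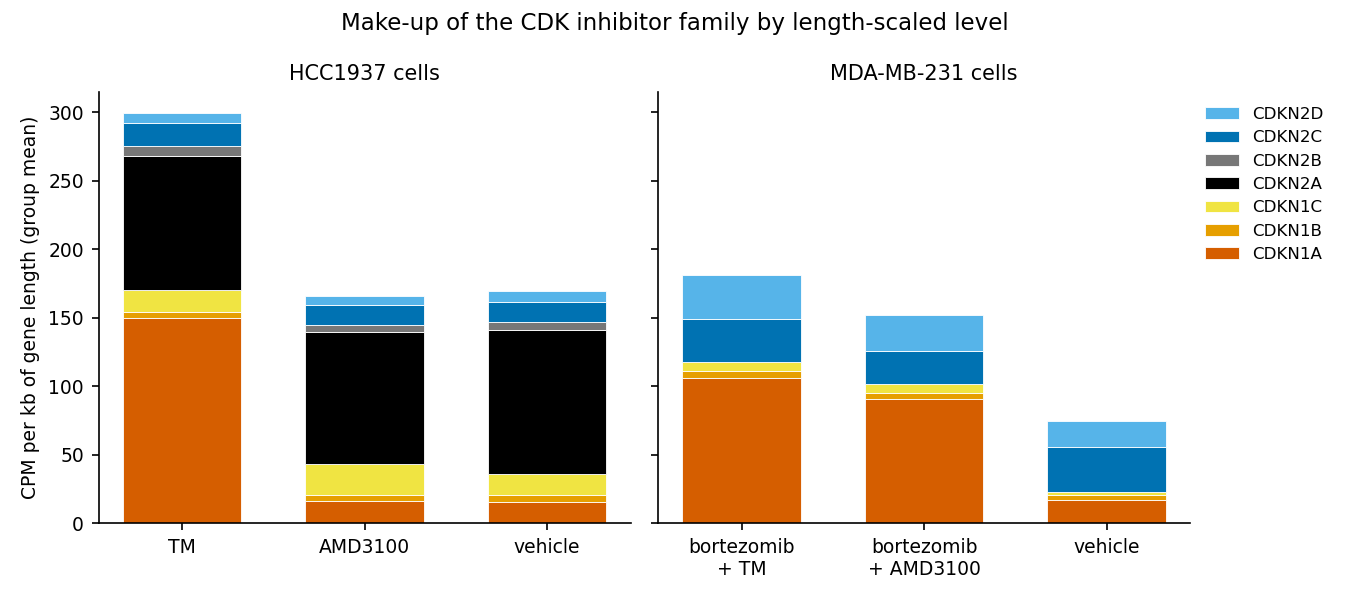
Stacked group means of the 7 members in CPM per kb of gene length for the human lines (n = 3 libraries per bar, mouse lengths not used). Shares hold only for the gene lengths in the authors' table. CDKN1A makes up 49.9% of the stack with TM in HCC1937 and 58.4% to 59.9% with bortezomib in MDA-MB-231, against 9.25% in HCC1937 vehicle and 22.5% in MDA-MB-231 vehicle, and the CDKN2A and CDKN2B layers are empty in MDA-MB-231.

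The responses of the lines were compared in 1 fit over the 18 human libraries, as the change in MDA-MB-231 minus the change in HCC1937 for the same partner drug. This contrast compares a line with bortezomib against another line without it. In the TM arms 21.6% of 21590 tested genes were called and in the AMD3100 arms 19.5%. For CDKN1A the difference was 2.39 in the AMD3100 arms (log2 scale, SE 0.23, edgeR adjusted p = 1.37e-06), and in the TM arms it was -0.55 (SE 0.23, edgeR adjusted p = 0.0981). The TM arm difference passed when libraries were scaled by totals (-1.08, edgeR adjusted p = 0.000881) or when HCC1937 AMD3100 replicate 1 was left out (-0.55, edgeR adjusted p = 0.00825). For CDKN1C it was 1.57 in the TM arms (SE 0.30, edgeR adjusted p = 0.000916) and 0.89 in the AMD3100 arms (SE 0.30, edgeR adjusted p = 0.0441), and for CDKN2C it was -0.44 in the AMD3100 arms (SE 0.15, edgeR adjusted p = 0.0484). The CDKN1C and CDKN2C calls in the AMD3100 arms were lost in 15 and 19 of 23 alternatives, with adjusted p up to 0.172 and 0.562. CDKN1B and CDKN2D gave differences of 0.34 to 0.68 in both arms that did not pass. In the TM arms CDKN1B (0.51) passed without HCC1937 AMD3100 replicate 1 (edgeR adjusted p = 0.0152), without MDA-MB-231 TM arm replicate 3 (edgeR adjusted p = 0.0451) and with DESeq2 (adjusted p = 0.0306). CDKN2D (0.68) passed there without HCC1937 AMD3100 replicate 1 (edgeR adjusted p = 0.0114), and CDKN2C passed by library totals (-0.69, edgeR adjusted p = 0.00133).

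The genes whose values followed those of CDKN1A most closely over the 12 treated human libraries were MAFF, DUSP1, CHAC1, PPP1R15A and ADM2. Likeness was the root mean square difference of log2 CPM relative to the vehicle mean of the same line, among 8366 genes with at least 5 CPM in each line. It was 0.87 for MAFF, 0.93 for DUSP1, 0.96 for CHAC1, 1.01 for PPP1R15A and 1.02 for ADM2, against 2.44 for the median gene. The libraries share lines and vehicle groups, so this is a description. DUSP1 is a phosphatase of MAP kinases, CHAC1 degrades glutathione, PPP1R15A directs a phosphatase to eIF2 alpha and ADM2 is a secreted peptide. MAFF, a small MAF transcription factor, averaged 2.03 on that scale with TM and -0.19 with AMD3100 in HCC1937, and 3.47 with bortezomib and TM and 3.26 with bortezomib and AMD3100 in MDA-MB-231. CDKN1A itself averaged 3.26, 0.03, 2.65 and 2.44 in the same order. Of the 4 relatives that reached 5 CPM in both lines CDKN1C came nearest, at rank 598, and CDKN2C was farthest, at rank 4837, while CDKN2A and CDKN2B did not enter. Over the 6 treated 4T1 tumours, where Cdkn1a itself moved little, the nearest of 11115 genes were Snrpe, Atpif1, Rpl35, Mrpl33 and Vcpkmt, with differences of 0.058 to 0.082 against 0.34 for the median gene.

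Genes that act upstream of CDKN1A were read from a list of 25 transcriptional regulators. In MDA-MB-231 the values of this and the following lists are those under TMM scaling, from which library totals differ by the shifts given above. For each list the background is the share of all tested genes. With TM in HCC1937 it was 2.96% higher and 4.11% lower, or 19.4% and 21.4% without AMD3100 replicate 1. With AMD3100 in HCC1937 it was 0% in both directions, or 5.39% higher and 2.76% lower without AMD3100 replicate 1. In MDA-MB-231 it was 24.1% higher and 27.6% lower in the TM arm and 22.3% and 24.2% in the AMD3100 arm, or 13.3% and 43.3%, and 12.8% and 38.2%, by library totals. In HCC1937 with TM, 4 of 23 tested regulators rose and 1 fell (median log2 change 0.28), and 13 rose and 7 fell without AMD3100 replicate 1. MYC, which represses CDKN1A, fell to 276.3 CPM with TM against 463.3 CPM in vehicle (log2 change -0.75, SE 0.08, edgeR adjusted p = 0.00127). KLF4, a factor that activates it, rose to 110.0 CPM against 50.4 CPM (1.13, SE 0.14, edgeR adjusted p = 0.00296), and VDR, the vitamin D receptor, rose to 28.2 CPM against 18.2 CPM (0.63, SE 0.09, edgeR adjusted p = 0.005). In MDA-MB-231, 10 of 24 regulators rose and 6 fell in the TM arm (median 0.16), and 11 rose and 5 fell in the AMD3100 arm (median 0.38). By library totals 7 rose and 11 fell in the TM arm (median -0.26), and 7 rose and 8 fell in the AMD3100 arm (median 0.02). The stress factor ATF3 held 166.5 CPM with bortezomib and TM, 144.5 CPM with bortezomib and AMD3100 and 3.80 CPM in vehicle, and ATF4 held 1514, 1406 and 296.8 CPM in the same order. EGR1 held 88.1, 116.0 and 10.4 CPM in that order, and all 3 factors were called higher in both arms (edgeR adjusted p from 6.14e-10 to 2.1e-08). In HCC1937 with AMD3100 none of the 23 was called (3 rose and 2 fell without replicate 1), and ATF4 held 720.0 CPM against 645.0 CPM in vehicle.

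The kinases and cyclins that the inhibitors act on were read from a list of 14. With TM in HCC1937, 1 of 14 was called, CDK7, the kinase that activates other CDKs, at 58.2 CPM against 41.1 CPM in vehicle (log2 change 0.50, SE 0.10, edgeR adjusted p = 0.0163). With TM, 2 rose and 6 fell when AMD3100 replicate 1 was left out. AMD3100 called none of 14, and 2 rose without replicate 1, where 5.39% of tested genes were called higher. In MDA-MB-231, 5 of 13 tested rose and 4 fell in each arm, with medians of 0.02 and 0.03, against 24.1% of tested genes higher and 27.6% lower in the TM arm. By library totals 3 rose and 6 fell in the TM arm, and 2 rose and 5 fell in the AMD3100 arm. CCND1, cyclin D1, held 105.2 CPM with bortezomib and TM, 123.4 CPM with bortezomib and AMD3100 and 467.4 CPM in vehicle (log2 changes -2.15 and -1.92, edgeR adjusted p = 1.11e-08 and 3.02e-08). CCND3, cyclin D3, moved the other way, at 321.8, 284.5 and 133.0 CPM in the same order (1.27 and 1.10, edgeR adjusted p = 2.03e-05 and 7.86e-05). CCNE2, cyclin E2, held 19.5, 10.9 and 2.46 CPM in that order (2.98 and 2.15, edgeR adjusted p = 2.97e-06 and 3.95e-05).

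CIP/KIP proteins are removed by the SKP2 and CUL4-DDB1-DTL ubiquitin ligases, the second acting through PCNA on chromatin. None of 12 genes of this group was called with TM in HCC1937 (median log2 change -0.14) or with AMD3100 (0.02). Without AMD3100 replicate 1, 1 rose and 5 fell with TM and 2 rose with AMD3100. In MDA-MB-231, 6 of 12 rose and 3 fell in the TM arm (median 0.27), and 5 rose and 3 fell in the AMD3100 arm (median 0.11), and the share that fell in the TM arm was near the 27.6% of all tested genes. By library totals 3 rose and 4 fell in the TM arm (median -0.15), and 3 rose and 5 fell in the AMD3100 arm (median -0.25). DDB1 held 1283 CPM with bortezomib and TM, 1146 CPM with bortezomib and AMD3100 and 633.6 CPM in vehicle. DTL, the substrate receptor that recognises p21, held 59.7, 57.1 and 21.3 CPM in the same order, and PCNA held 172.7, 168.8 and 108.3 CPM. All 3 were called higher in both arms (edgeR adjusted p from 4.42e-05 to 0.000692). These are RNA levels, and protein levels of the inhibitors were not measured here.

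Downstream of the inhibitors are the genes that RB and the DREAM complex silence. With TM in HCC1937, 6 of 25 tested genes fell and none rose, with a median log2 change of -0.25, where 4.11% of all tested genes fell. When AMD3100 replicate 1 was left out, 18 fell and 2 rose, where 21.4% of all tested genes fell. With AMD3100 none was called, and 2 rose and 1 fell without replicate 1. RRM2, a subunit of ribonucleotide reductase, held 84.1 CPM with TM against 175.0 CPM in vehicle (log2 change -1.06, SE 0.11, edgeR adjusted p = 0.00135). MKI67, the proliferation antigen, held 82.1 CPM against 133.4 CPM (-0.70, SE 0.09, edgeR adjusted p = 0.00261), and TYMS, thymidylate synthase, held 14.1 CPM against 20.9 CPM (-0.56, SE 0.12, edgeR adjusted p = 0.0284). In MDA-MB-231, 9 of 26 rose and 6 fell in the TM arm and 9 rose and 5 fell in the AMD3100 arm, with medians of -0.09 and -0.11, and the shares that fell were no larger than those of all tested genes (27.6% and 24.2%). By library totals 7 rose and 14 fell in the TM arm, and 6 rose and 11 fell in the AMD3100 arm. The shares that fell were then larger than those of all tested genes (43.3% and 38.2%), so that reading depended on the scaling. The medians by library totals were -0.51 and -0.47, against -0.51 and -0.41 over all tested genes. CDC25A, the phosphatase that activates CDK2, held 563.6 CPM with bortezomib and TM, 488.3 CPM with bortezomib and AMD3100 and 118.9 CPM in vehicle, and RRM2 held 1402, 1498 and 508.4 CPM in the same order. Both were called higher in both arms (edgeR adjusted p = 1.08e-07 or below). The difference between lines was not tested for these genes.

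Of the pocket proteins and their partners, none of 17 was called with TM in HCC1937 (2 rose and 5 fell without AMD3100 replicate 1), where RB1 held 23.3 ± 0.84 CPM with TM and 23.3 ± 1.88 CPM in vehicle (SD, n = 3 each). In MDA-MB-231, 5 of 17 rose and 4 fell in each arm, shares near those of all tested genes (24.1% and 27.6% in the TM arm, 22.3% and 24.2% in the AMD3100 arm). By library totals 3 rose and 7 fell in each arm. RBL2, which encodes the DREAM pocket protein p130, held 1.13 CPM with bortezomib and TM, 1.58 CPM with bortezomib and AMD3100 and 8.45 CPM in vehicle (log2 changes -2.90 and -2.42, edgeR adjusted p = 5.79e-07 and 2.36e-06). TFDP1, the E2F partner, held 134.4, 150.1 and 303.0 CPM in the same order, while TFDP2, its paralog, held 95.6, 89.5 and 33.0 CPM. In the 4T1 tumours no gene of these lists was called in any comparison. Median log2 changes of the lists against vehicle in 4T1 lay between -0.08 and 0.15, and Ccnd1 held 704.7 CPM with bortezomib and TM, 595.7 CPM with bortezomib and AMD3100 and 707.0 CPM in vehicle tumours.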

How the data were processed

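Libraries were made from poly(A)-enriched RNA and sequenced on a NovaSeq in paired-end mode, per the labels. The authors deposited whole-number read counts per gene, with a gene length column in the human tables. The submitters' processing notes name featureCounts 2.0.1, MultiQC 1.11 and the builds GRCh38 and GRCm38, and give no aligner, annotation or strand setting. Of counts between 1 and 20, 56.9% to 66.1% were even.

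Human identifiers were matched to symbols for 61481 of 78932 features, and mouse symbols were used as given. The 9 libraries of a dataset entered 1 fit in edgeR 4.0.16 (R 4.3.3), with filterByExpr, TMM scaling and the quasi-likelihood test, p-values adjusted over all tested genes by Benjamini-Hochberg, and calls at an adjusted p under 0.05. SEs come from the log2 change and the root of its F statistic. Levels are counts per 1000000 (CPM) with TMM scaling. The ratio of CDKN1A to CDKN1B used counts plus 0.5. Likeness used log2 CPM with a prior count of 2. The code was tested on simulated data.

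The members and gene lists were chosen with earlier results of these data known. All 7 members are named whatever their result. From each other list at most the 3 called genes with the smallest p are named in a comparison, or the 2 with the highest CPM where none was called, and the 5 genes nearest to CDKN1A are named. Alternatives were median-of-ratios scaling, no low-count filter, the replicate number as a block, DESeq2 1.42.0, the compared groups alone, and each library left out in turn. Scaling by library totals, and the list counts under it or without HCC1937 AMD3100 replicate 1, were chosen after the data were seen. 1 gene and 1 gene list are not reported here.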

Additional observations from a re-analysis of the deposited data

Results flagged for a closer look

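The change in MDA-MB-231 (with bortezomib) minus the change in HCC1937 (without it) was tested as an interaction for 5 members. In the TM arms 1 of 5 passed (CDKN1C), and in the AMD3100 arms 3 of 5 passed (CDKN1A, CDKN1C and CDKN2C). Among all tested genes 21.6% passed in the TM arms and 19.5% in the AMD3100 arms. For CDKN1A it was 2.39 on the log2 scale in the AMD3100 arms (edgeR adjusted p = 1.37e-06). For CDKN1C it was 1.57 in the TM arms (edgeR adjusted p = 0.000916) and 0.89 in the AMD3100 arms (edgeR adjusted p = 0.0441). For CDKN2C it was -0.44 in the AMD3100 arms (edgeR adjusted p = 0.0484). The line and bortezomib cannot be told apart in these differences. HCC1937 AMD3100 replicate 1, the library with the high mitochondrial share, enters the AMD3100 values. Without it they were 2.20 for CDKN1A, 1.27 for CDKN1C and -0.49 for CDKN2C. The CDKN1C and CDKN2C calls in the AMD3100 arms were lost in 15 and 19 of 23 alternatives.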

How the results depend on the processing

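The rises of CDKN1A with TM in HCC1937 and in both MDA-MB-231 arms, and its lower level with AMD3100 than with TM in HCC1937, kept their direction and call under every alternative run. Leaving out each library gave 3.20 to 3.27 for TM in HCC1937, 2.57 to 2.77 for the TM arm and 2.35 to 2.53 for the AMD3100 arm of MDA-MB-231. Counts of called genes moved more. For TM against vehicle in HCC1937 they were 718 with the replicate block, 2668 with DESeq2, 8336 with the compared groups alone and 406 to 8318 on leaving out a library. For AMD3100 against TM they were 725 with the replicate block, 3205 with DESeq2, 252 with the groups alone and 373 to 7442 on leaving out a library. For AMD3100 against vehicle they were 161 without the low-count filter, 39 with DESeq2 and 0 to 1661 on leaving out a library. For the AMD3100 arm against the TM arm in MDA-MB-231 they were 177 without the filter, 70 with DESeq2 and 0 to 183 on leaving out a library. In 4T1 DESeq2 called 3 genes for the TM arm and 17 for the AMD3100 arm against vehicle and 6 between arms, the groups alone gave 1 for the AMD3100 arm, and leaving out a library gave 0 to 1 in both arms. The line difference called 3706 to 7382 genes in the TM arms on leaving out a library. Among the libraries left out, AMD3100 replicate 1 gave the highest count in each HCC1937 comparison.

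CDKN1A turned sign only where it was near 0. Leaving out a library gave -0.086 to 0.27 for AMD3100 against vehicle in HCC1937, and in 4T1 -0.30 to 0.028 for the TM arm and -0.23 to 0.11 between arms. Its line difference in the TM arms was -1.08 by library totals and -0.63 to -0.42 on leaving out a library. The ratio to CDKN1B ran from -0.15 to 0.41 for AMD3100 against vehicle in HCC1937, from -0.053 to 0.18 between arms in MDA-MB-231 and from -0.16 to 0.12 between arms in 4T1. Other members also turned on leaving out a library, and for CDKN2A in HCC1937 the turned values without AMD3100 replicate 1 passed the test (0.22 against vehicle, edgeR adjusted p = 0.00819, and 0.33 against TM, edgeR adjusted p = 8.13e-06). With TM in HCC1937 CDKN1C gave -0.0185 to 0.0318 and CDKN2D -0.013 to 0.25. With AMD3100 against vehicle CDKN1B gave -0.13 to 0.031, CDKN2A -0.37 to 0.22, CDKN2C -0.029 to 0.086 and CDKN2D -0.52 to 0.19. With AMD3100 against TM CDKN2A gave -0.26 to 0.33 and CDKN2D -0.63 to 0.079. In 4T1 Cdkn2a gave -0.14 to 0.65 and Cdkn2c -0.020 to 0.30 in the TM arm, and Cdkn2a -0.25 to 0.53 in the AMD3100 arm. Between the 4T1 arms Cdkn1b gave -0.076 to 0.0, Cdkn2a -0.55 to 0.41, Cdkn2b -0.10 to 0.74 and Cdkn2d -0.13 to 0.12.

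By library totals CDKN2C gave -0.018 for AMD3100 in HCC1937, CDKN1B -0.088 in the AMD3100 arm of MDA-MB-231, and the CDKN1B line difference -0.015 in the TM arms and -0.0011 in the AMD3100 arms. CDKN2C in the TM arm of MDA-MB-231 gave 0.0025 with median-of-ratios scaling and with DESeq2, CDKN2A between HCC1937 AMD3100 and TM gave 0.0039 with the groups alone, and Cdkn2a between the 4T1 arms gave 0.011 with the replicate block. The cause was not tested. Same-numbered replicates did not deviate together in every pair (correlations -0.037 to 0.037 in HCC1937, -0.32 to 0.29 in MDA-MB-231 and -0.47 to 0.60 in 4T1), so the replicate number is not read as a pairing, and the replicate block is given only as an alternative. Among the members and ratios 1054 values kept their direction and side of the threshold, 36 lost a call, 15 gained one and 43 turned sign, the 2 CDKN2A values with a call among them. The ratios entered these counts by direction alone, since no p-value was computed for their alternatives. With 3 libraries per group, changes well above their SE could also fail the test. Cdkn1c in the AMD3100 arm of 4T1 had a log2 change of 1.74 with an SE of 0.63 (edgeR adjusted p = 0.634). CDKN2B between AMD3100 and TM in HCC1937 had -0.67 with an SE of 0.20 (edgeR adjusted p = 0.0748). A member that was not called is therefore not shown to be unchanged. Members under 3 CPM in 4T1 had SEs of 0.51 or more on the log2 scale.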
